A study of Oryza sativa Japonica Group with 12 samples.

Results

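The genes described here are the nuclear rice genes for the light reactions of photosynthesis and for Rubisco and its activase, followed in an old and a young leaf of wild-type plants and of plants with extra miR156. They were chosen by gene name from an NCBI gene table, and 16 such genes were found. A probe set naming that gene alone existed for 14 of them, among 17905 genes so named on the array. The light-harvesting chlorophyll-binding proteins were CAB2R, RCABP89 and RCABP69. Photosystem I was represented by PSAG and PSAH, and photosystem II by PSB28. The carriers between and after the photosystems were PETC, PETE and LFNR1. Also chosen by name were 2 genes named FNR, here told apart by their locus names LOC4334338 and LOC4342399. Whether these 2 act in photosynthesis or in non-green tissues is not given by the name table. Carbon fixation was represented by the Rubisco small subunit genes RBCS-C and RBCS1 and by the activase gene RCA. CAB1R, a further light-harvesting gene, and PSBW, a further photosystem II gene, had no such probe set and were not analysed here. The names of 2 other genes matched by letters alone, the abscisic acid receptor RCAR5 and the aminopeptidase PSA, and both were kept apart.

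Transcripts were measured with an Affymetrix rice array, which reports 1 signal per probe set, in 12 leaf samples of Oryza sativa (Japonica Group). The plants were 45 days old and had been grown in hydroponics. Group WT_L3 held leaf 3, the old leaf of the main tiller, of 3 wild-type plants, and group WT_L6 held leaf 6, the young leaf, of the same plants. Groups OE_L3 and OE_L6 held the same leaves of 3 independent lines over-expressing the microRNA miR156, and replicates 1, 2 and 3 were lines Md15, Md43 and Mh9. The over-expressing plants had been selected on hygromycin, and no transgenic plant without extra miR156 was sampled, so effects of the microRNA and of transformation cannot be told apart. Leaf age and leaf position also cannot be told apart.

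In the light reactions, chlorophyll-binding antenna proteins pass light energy to photosystems II and I. Electrons then move through the cytochrome complex and plastocyanin to photosystem I, and through ferredoxin to ferredoxin-NADP reductase, which makes NADPH. Rubisco uses the products of these reactions to fix carbon dioxide, and Rubisco activase keeps it in its active state. The chloroplast genome encodes many photosystem proteins and the large subunit of Rubisco, while the genes described here lie in the nucleus. Apart from the FNR loci, whose form is not given, they encode other proteins of the same machinery. MiR156 silences SPL transcription factor genes and marks the juvenile phase of plants.

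Array medians lay between 50.8 and 56.5, and the arrays of a group differed more in the old leaf than in the young leaf. Averaged over all probe sets tested, the log2 variance between replicates was 0.169 for WT_L3, 0.115 for OE_L3, 0.0425 for WT_L6 and 0.0469 for OE_L6. Markers of dividing cells also differed among the old leaves. Their summed signal over 12 genes was 3573, 611 and 651 in replicates 1, 2 and 3 of WT_L3, and 2045, 2484 and 593 in those of OE_L3. In the young leaves it lay between 2685 and 5725. Markers of secondary cell walls ranged likewise from 203 to 3257 within WT_L3. WT_L3 replicate 1 and OE_L3 replicates 1 and 2 thus stood apart from the other old leaves. Results between leaves are also given without these 3 arrays, a choice made after seeing the data. The array's Dap control gave a log2 3' over 5' ratio of 5.35 in OE_L6 replicate 1 and between 3.20 and 3.70 elsewhere. In whole leaves, fewer cells of a type and less RNA per cell cannot be told apart.

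Between the old and the young leaf, a minority of the genes passed the test, and in opposite directions. A gene that did not pass may still differ. PSB28, RCA and RBCS-C were higher in the young leaf, and the FNR gene LOC4342399 was lower. In wild type these were 4 of the 13 genes that passed the filter on low signal, or 30.8%, at an adjusted limma p under 0.05. The background was higher, since 47.8% of all 34316 probe sets tested were called in that comparison, 23.9% higher and 23.9% lower. In the over-expression lines the same 4 genes were called, in the same directions, beside a background of 42.1%, of which 18.9% were higher and 23.2% lower. RBCS1 did not pass the filter, with signals between 7.03 and 11.7 on the 12 arrays.

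**Figure D1:**
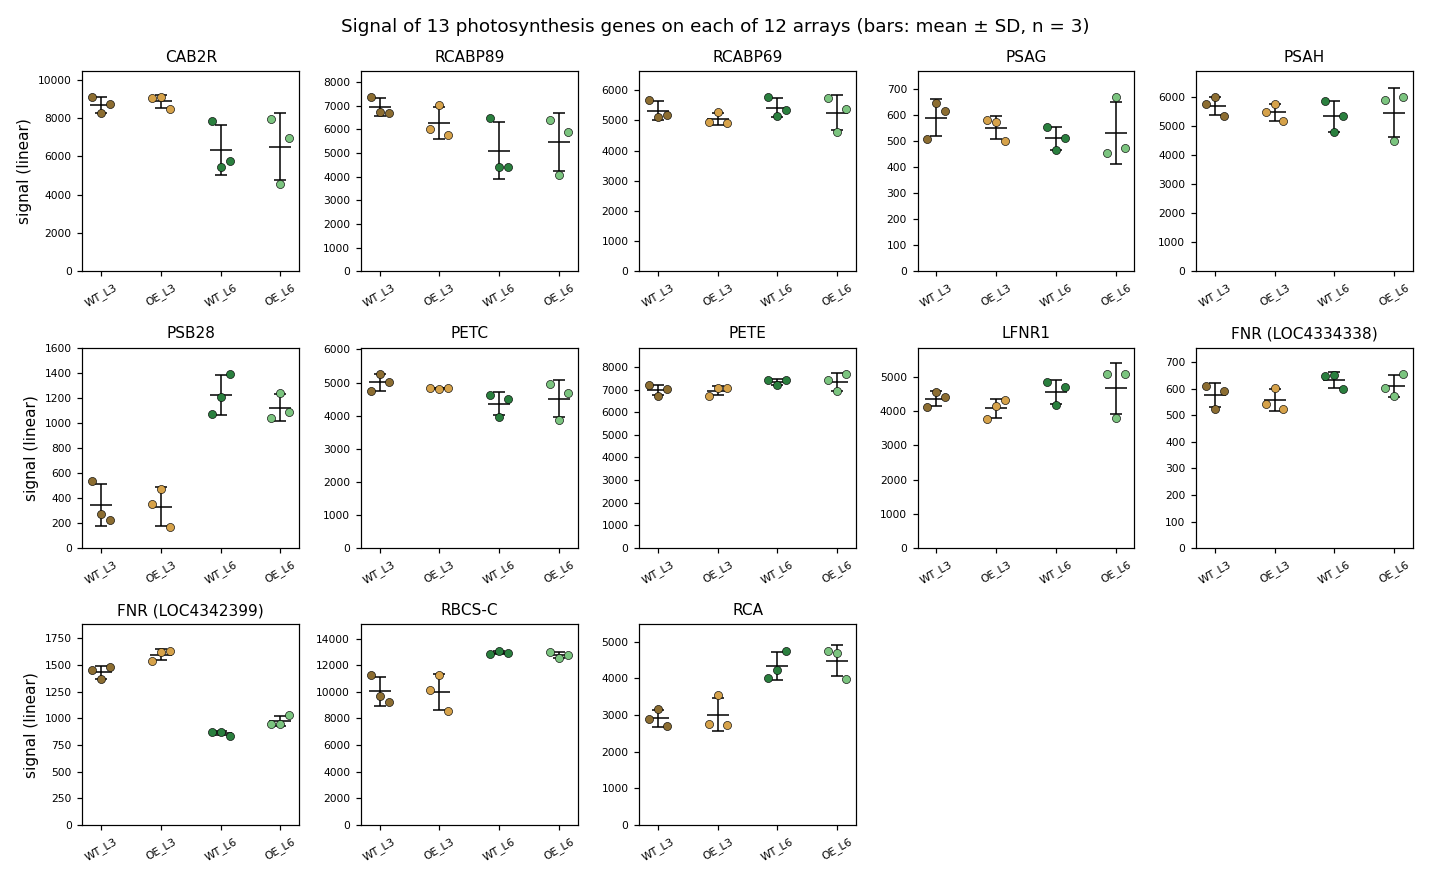
Signal (linear, arbitrary units, vertical axes starting at 0) of the 13 tested genes on each of the 12 arrays, by leaf and genotype, with points for replicates and bars for the group mean ± SD (n = 3). PSB28, RCA and RBCS-C stood higher in L6 of both genotypes, and the FNR gene LOC4342399 stood lower.

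The light-harvesting genes encode proteins that hold chlorophyll around the photosystems. CAB2R gave signals of 9083, 8272 and 8731 in WT_L3 and of 7830, 5444 and 5763 in WT_L6. The over-expression lines gave 9059, 9106 and 8498 in L3 and 7967, 4568 and 6964 in L6. Every young leaf was below every old leaf of its genotype, and the young leaves varied more among themselves. The log2 difference of L6 from L3, on the log2(signal + 16) scale used throughout, was -0.47 in wild type (95% interval -0.89 to -0.05, limma adjusted p = 0.06) and -0.49 in the over-expression lines (adjusted p = 0.0581). Neither passed the threshold. Without OE_L6 replicate 2 the latter was -0.25 (limma adjusted p = 0.175). A dimmer probe set of CAB2R did pass it, at -0.31 in wild type (adjusted p = 0.0339) and -0.37 in the over-expression lines (adjusted p = 0.0182). The brightest probe set of CAB2R is of a type that can bind transcripts of more than 1 gene, so copies of the gene family may share its signal. The same holds for the brightest probe sets of RCABP69, RBCS-C, RCA and the FNR gene LOC4342399. The dimmer probe set of CAB2R and that of PETE are of a type that binds several transcripts of 1 gene.

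RCABP89, a chlorophyll-binding protein gene of the same family, gave signals of 7375, 6739 and 6694 in WT_L3 and 6497, 4402 and 4406 in WT_L6. In wild type the groups did not overlap, and the log2 difference was -0.47 (95% interval -0.88 to -0.05, limma adjusted p = 0.0608). Signals in the over-expression lines were 6025, 7047 and 5752 in L3 and 6395, 4059 and 5898 in L6. These groups overlapped, with a log2 difference of -0.22 (adjusted p = 0.348). The difference between both leaf differences was 0.24 (95% interval -0.34 to 0.83) and did not pass the test. With 1 array left out it ranged from 0.11 (without OE_L6 replicate 1) to 0.44 (without OE_L6 replicate 2), and never passed. RCABP69 gave 5675, 5127 and 5175 in WT_L3 and 5780, 5152 and 5338 in WT_L6, with 4945, 5266 and 4902 in OE_L3 and 5749, 4626 and 5388 in OE_L6. The groups overlapped in both genotypes. Its log2 difference was 0.03 in wild type (95% interval -0.16 to 0.21) and 0.06 in the over-expression lines. Of the 3 light-harvesting genes, none passed the test with its brightest probe set.

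PSAG and PSAH encode small subunits of photosystem I, and neither passed the test. PSAH gave 5714 ± 315 in WT_L3, 5347 ± 526 in WT_L6, 5490 ± 294 in OE_L3 and 5480 ± 845 in OE_L6 (SD, n = 3 each). Its log2 differences between leaves were -0.10 in wild type (adjusted p = 0.494) and -0.01 in the over-expression lines (adjusted p = 0.933). PSAG gave 509, 646 and 617 in WT_L3 and 556, 466 and 513 in WT_L6, with 583, 573 and 502 in OE_L3 and 453, 670 and 473 in OE_L6. Old and young leaves overlapped in both genotypes, and the log2 differences were -0.20 (limma adjusted p = 0.302) and -0.07 (adjusted p = 0.726). Another PSAG probe set had the opposite sign, at 0.26 in wild type and 0.29 in the over-expression lines, and did not pass the test either.

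PSB28 encodes a protein that takes part in the assembly of photosystem II. Its signals were 532, 268 and 221 in WT_L3 and 1071, 1204 and 1392 in WT_L6. Those of the over-expression lines were 354, 472 and 169 in L3 and 1035, 1242 and 1083 in L6. The lowest young leaf was well above the highest old leaf in both genotypes. The young leaf was 3.70-fold higher in wild type (log2 difference 1.89, SE 0.36, limma adjusted p = 0.00259). In the over-expression lines it was 3.52-fold higher (log2 difference 1.81, 95% interval 1.01 to 2.61, adjusted p = 0.00362). This was the largest leaf difference among the 13 genes in both genotypes.

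Within the old leaf, PSB28 was highest on the 3 arrays with high signal of division markers, WT_L3 replicate 1 and OE_L3 replicates 1 and 2. The brightest probe set of RBCS-C and the genes of secondary cell walls were highest on the same 3 arrays. The pattern is thus not particular to PSB28 or to the division markers. Without these arrays the log2 difference between leaves was 2.25 in wild type and 2.61 in the over-expression lines. Leaving out the old leaves where PSB28 was highest raises these differences by itself, so they add nothing to the test. OE_L3 was then left with 1 array, and no p is given. The division markers also differed between the leaves. Of 11 tested, 7 were higher in the young leaf of wild type and 1 in that of the over-expression lines, with median log2 differences of 1.94 and 1.66. Over all probe sets, 23.9% and 18.9% were called higher. The part of dividing cells in the PSB28 difference was not tested.

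**Figure D2:**
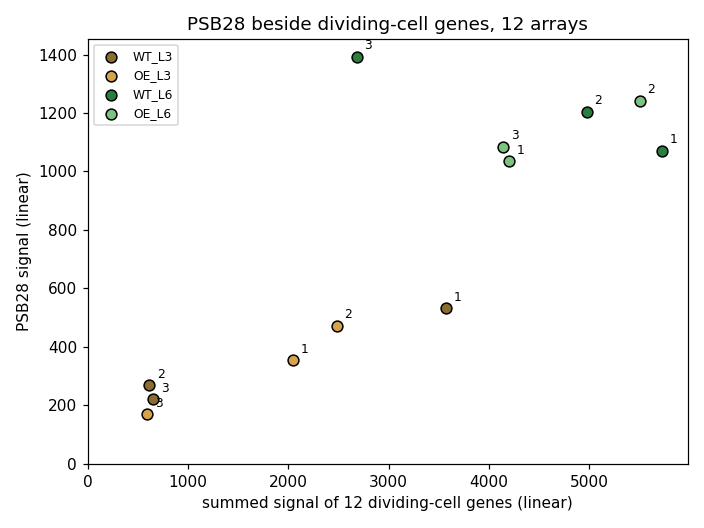
Signal of PSB28 (vertical) against the summed signal of 12 division marker genes (horizontal) on each of the 12 arrays, coloured by group. Among the old leaves, the 3 arrays with marker sums of 2045, 2484 and 3573 had PSB28 at 354, 472 and 532, and the other 3 had it at 169 to 268.

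Electron transfer genes fell into those with little difference and 1 that was lower. PETC, the Rieske iron-sulphur protein of the cytochrome complex, gave 4736, 5267 and 5014 in WT_L3 and 4618, 3964 and 4512 in WT_L6. The wild-type groups did not overlap, but the log2 difference of -0.20 did not pass the test (limma adjusted p = 0.101). PETC in the over-expression lines was at 4836, 4813 and 4829 in L3 and at 4970, 3881 and 4696 in L6. These groups overlapped, with a log2 difference of -0.10 (limma adjusted p = 0.387). PETE, which encodes plastocyanin, gave 6984 ± 231 in WT_L3, 7351 ± 127 in WT_L6, 6951 ± 206 in OE_L3 and 7350.3 ± 394 in OE_L6. Every wild-type young leaf was above every wild-type old leaf, while the groups of the over-expression lines overlapped. The log2 differences of PETE were 0.07 (95% interval -0.04 to 0.19) and 0.08, and neither passed the test.

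Ferredoxin-NADP reductase is encoded by several genes, some acting in leaves and some in non-green tissues, and the name table does not say which form each FNR locus encodes. LFNR1, the leaf form by name, gave 4367 ± 228 in WT_L3 and 4575 ± 351 in WT_L6, with 4085 ± 287 in OE_L3 and 4667 ± 738 in OE_L6. Its log2 differences were 0.07 and 0.18, and neither passed the test. The FNR gene LOC4334338 lay between 526 and 657 on all 12 arrays, with log2 differences of 0.13 in both genotypes.

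The FNR gene LOC4342399 went the other way from PSB28. Its signals were 1448, 1365 and 1477 in WT_L3 and 867, 874 and 837 in WT_L6. In the over-expression lines they were 1534, 1623 and 1634 in L3 and 948, 944 and 1029 in L6. The old and young leaves did not overlap. The young leaf was 1.65-fold lower in wild type (log2 difference -0.72, SE 0.07, limma adjusted p = 4.93e-05) and 1.63-fold lower in the over-expression lines (log2 difference -0.71, adjusted p = 6.93e-05). A dimmer probe set of this gene was also lower, by a log2 difference of -0.51 in wild type (adjusted p = 0.00391) and -0.34 in the over-expression lines (adjusted p = 0.0251). Without the 3 old-leaf arrays that stood apart, the brighter probe set gave -0.71 and -0.74.

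RBCS-C encodes a small subunit of Rubisco. Its signals were 11240, 9659 and 9202 in WT_L3 and 12857, 13099 and 12890.0 in WT_L6. The lines with extra miR156 gave 10150, 11250 and 8550 in L3 and 13013, 12532 and 12796 in L6. All young leaves were above all old leaves. The young leaf was 1.29-fold higher in both genotypes, by a log2 difference of 0.37 in wild type (95% interval 0.16 to 0.59, limma adjusted p = 0.0108) and 0.36 in the over-expression lines (adjusted p = 0.0137).

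The probe set behind these values was the brightest of the whole array on all 6 young-leaf arrays. Dimmer probe sets of RBCS-C differed more between the leaves. The first rose from 732 ± 178 in WT_L3 to 1342 ± 111 in WT_L6 (SD, n = 3), a log2 difference of 0.88 (limma adjusted p = 0.00308), and by 0.95 in the over-expression lines. The second rose from 1082 ± 157 to 1513 ± 93.3, a log2 difference of 0.49 (adjusted p = 0.0128), and by 0.58 in the over-expression lines. The dimmest probe set of the gene had low signal, at 14.5 in WT_L3, 42.0 in WT_L6, 11.6 in OE_L3 and 45.2 in OE_L6 (means). Whether signal near the top of the range narrows the difference of the brightest probe set was not tested. Without the 3 old-leaf arrays that stood apart, that probe set gave log2 differences of 0.46 in wild type and 0.58 in the over-expression lines. Among the old leaves its signal was highest on those arrays, so leaving them out raises the differences by itself.

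RCA encodes Rubisco activase, which removes inhibitory sugar phosphates from Rubisco. Its signals were 2886, 3151 and 2691 in WT_L3 and 4002, 4237 and 4755 in WT_L6. Lines Md15, Md43 and Mh9 gave 2752, 3543 and 2738 in L3 and 4756, 4698 and 3991 in L6. Old and young leaves did not overlap in either genotype. The young leaf was 1.49-fold higher in both, by a log2 difference of 0.57 in wild type (95% interval 0.31 to 0.83, limma adjusted p = 0.00388) and 0.58 in the over-expression lines (adjusted p = 0.00416). The other 3 probe sets of RCA passed the test too, at 0.65, 0.50 and 0.53 in wild type and 0.69, 0.53 and 0.56 in the over-expression lines. Without the 3 old-leaf arrays that stood apart, the values were 0.57 and 0.70.

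**Figure D3:**
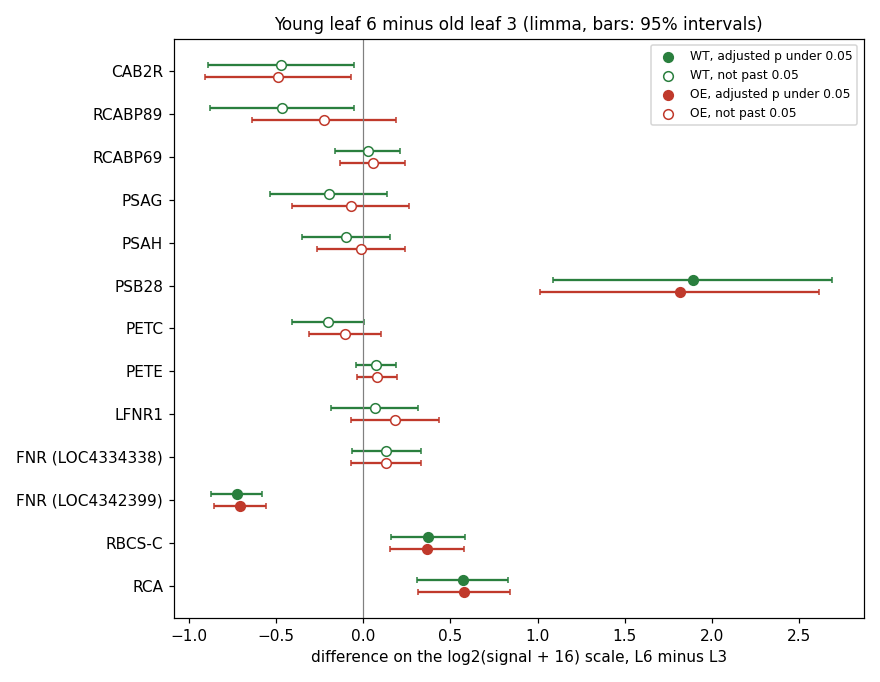
Log2 difference of L6 from L3, on the log2(signal + 16) scale with 95% intervals, for the 13 tested genes in wild type and in the over-expression lines. PSB28 (1.89 and 1.81), RCA, RBCS-C and the FNR gene LOC4342399 (-0.72 and -0.71) passed the test in both genotypes, and the intervals of most other genes reach across 0.

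The 9 genes that were not called ranged in log2 difference from -0.47 to 0.13 in wild type (limma adjusted p from 0.06 to 0.817) and from -0.49 to 0.18 in the over-expression lines (adjusted p from 0.0581 to 0.933). The median log2 difference over all 13 genes was 0.03 in wild type and 0.06 in the over-expression lines. With 1 array left out it ranged from -0.021 (without WT_L6 replicate 1) to 0.062 (without WT_L6 replicate 2) in wild type. In the other genotype it ranged from 0.030 (without OE_L6 replicate 1) to 0.12 (without OE_L6 replicate 2). The median size of the difference, without its sign, was 0.199 in wild type, against 0.285 over all probe sets, and 0.181 in the over-expression lines, against 0.271. Old and young groups did not overlap for 8 of 13 genes in wild type, 61.5%, against a background of 54.7%. In the over-expression lines this was 5 of 13, 38.5%, against 59.4%. By plant, PSB28, RCA and RBCS-C were higher in the young leaf of 6 of 6 plants. The FNR gene LOC4342399 and CAB2R were lower in 6 of 6.

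Among the young leaves, 1 array lay low for most of the genes that were not called. OE_L6 replicate 2, line Md43, was the lowest of the 6 young-leaf arrays for 8 of these 9 genes and the lowest of all 12 arrays for 5. The exception was PSAG, where it was the highest of the young leaves at 670. The median deviation of these genes from their means over the 12 arrays was -0.21 on that array (log2) and -0.19 in WT_L6 replicate 2. It was 0.10 in WT_L6 replicate 1 and 0.10 in OE_L6 replicate 1. Without OE_L6 replicate 2, the wild-type leaf comparison called 7 of 13 genes, adding CAB2R, PETC and RCABP89, all lower in the young leaf. That array is not a wild-type one and enters the comparison only through the shared estimate of the spread. In the over-expression lines, leaving it out called 5 of 13, adding LFNR1. Without WT_L6 replicate 1, 6 of 13 were called in wild type, adding CAB2R and RCABP89.

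**Figure D4:**
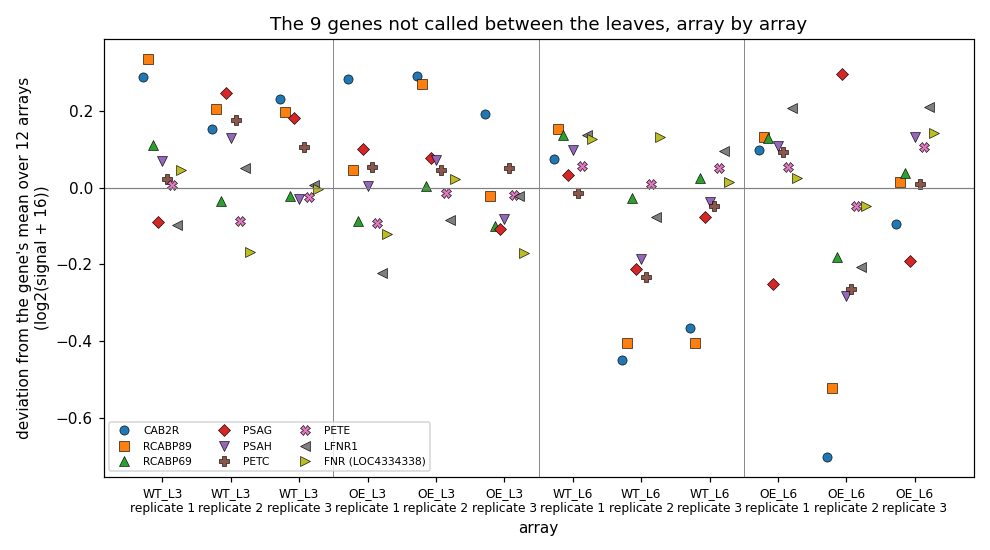
Deviation of the log2(signal + 16) value of each of the 9 genes not called between leaves from its mean over the 12 arrays, by group and replicate, with 1 point per gene. The median of the points was lowest in OE_L6 replicate 2 (-0.21) and WT_L6 replicate 2 (-0.19).

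Over-expression of miR156 was compared with wild type in each leaf. None of the 13 genes was called in either leaf (limma adjusted p under 0.05), where 0.119% of all probe sets were called in the old leaf and 0.102% in the young leaf. At an unadjusted p under 0.05 there was 1 of 13 in each leaf, the FNR gene LOC4342399, beside 3.86% of all probe sets in the old leaf and 7.72% in the young leaf. The log2 differences of over-expression from wild type ranged from -0.15 to 0.16 in the old leaf, with a median of -0.05, and from -0.12 to 0.18 in the young leaf, with a median of 0.02. The 95% interval lay within 0.5 log2 units of 0 for 11 of 13 genes in each leaf. The exceptions were RCABP89 and PSB28, and for PSB28 the interval ran from -0.85 to 0.75 in the old leaf and from -0.92 to 0.68 in the young leaf. Differences of that size in PSB28 thus lie inside the intervals of this fit, whose spread is shared by all 4 groups. Relative to its mean, PSB28 scattered more in the old leaf, at 340 ± 167 in WT_L3 and 332 ± 152 in OE_L3 (SD, n = 3). In the young leaf it was at 1222 ± 162 in WT_L6 and 1120 ± 108 in OE_L6. The shared spread may therefore make the young-leaf interval of PSB28 too wide.

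**Figure D5:**
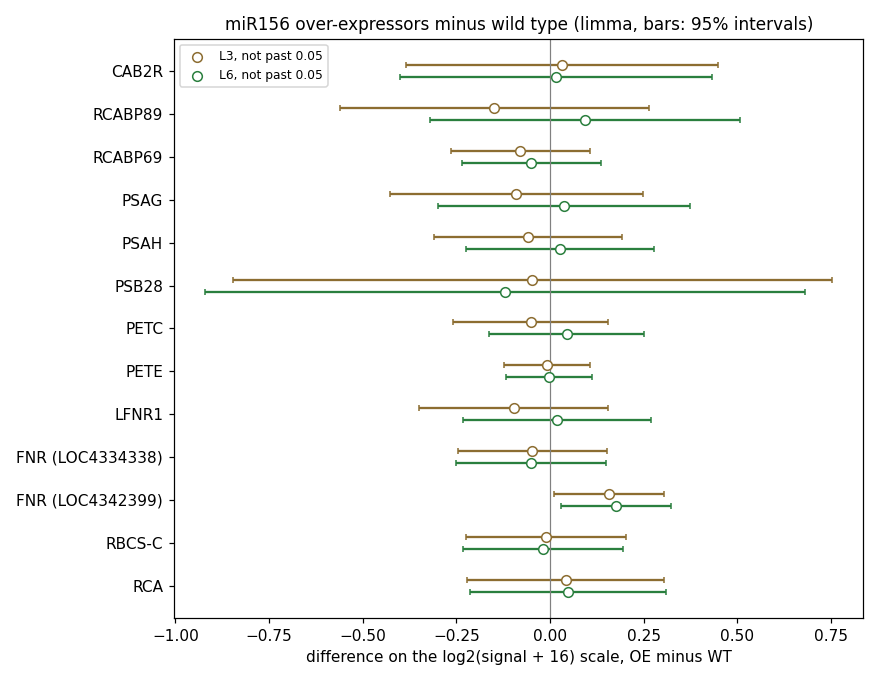
Log2 difference of over-expression lines from wild type, on the log2(signal + 16) scale with 95% intervals, for the 13 tested genes in L3 and L6. All differences lie between -0.15 and 0.18, none passed the test, and the interval of the FNR gene LOC4342399 lies above 0 in both leaves before adjustment.

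The FNR gene LOC4342399 was the only 1 of the 13 whose genotypes did not overlap, in the old leaf and in the young leaf alike, with the over-expression lines higher. Non-overlap was found for 8.54% of all probe sets in the old leaf and 15.2% in the young leaf, against 7.69% of these genes. With the over-expression lines higher, as for this gene, it was 4.47% and 5.92% of all probe sets. The log2 difference was 0.16 in the old leaf (95% interval 0.01 to 0.31, limma adjusted p = 1) and 0.18 in the young leaf (95% interval 0.03 to 0.32, limma adjusted p = 0.614). It thus failed the correction in both. A dimmer probe set of the gene gave 0.05 in the old leaf and 0.21 in the young leaf.

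The leaf differences of both genotypes were also compared with each other. None of the 13 genes passed this interaction test, beside 0.00874% of all probe sets, and none had an unadjusted limma p under 0.05, beside 2.46% of all probe sets. Estimates, as the log2 leaf difference of the over-expression lines minus that of wild type, ranged from -0.07 to 0.24 with a median of 0.02. The lowest unadjusted p was 0.379, for RCABP89, in the limma fit. The intervals were wide for some genes, from -1.21 to 1.06 for PSB28, and lay within 0.5 of 0 for 9 of 13.

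Other genes of photosynthesis, of carbon fixation and of photorespiration beside it, were measured for 9 names. In the young leaf of wild type, 2 were higher and 2 lower, and in that of the over-expression lines 3 were higher and 2 lower, beside 47.8% and 42.1% of all probe sets called in these comparisons. GLO4 and GLO1, named as genes of the photorespiratory glycolate oxidases, were lower in both genotypes. GLO4 went from 1477 ± 210 in WT_L3 to 685 ± 115 in WT_L6 (SD, n = 3), a log2 difference of -1.09 (limma adjusted p = 0.00274), and GLO1 by -0.19 in both genotypes. GLO3, of the same family, was higher, with log2 differences of 1.27 and 1.42, and it too was high in the 3 old-leaf arrays that stood apart. FBPASE and CFBP1, named for fructose bisphosphatases, were called in the over-expression lines, at 0.38 and 0.88, and ALDP, named for plastid aldolase, in wild type, at 0.25. None of the 9 was called between genotypes or in the interaction.

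Of 7 genes listed as regulators or assembly factors, 3 were lower in the young leaf of wild type and 4 in that of the over-expression lines, and none was higher. Over all probe sets, 23.9% were called lower in wild type and 23.2% in the over-expression lines. GLK2, a transcription factor known to drive nuclear photosynthesis genes, gave 1293 ± 28.8 in WT_L3 and 817 ± 36.7 in WT_L6 (SD, n = 3). The log2 difference was -0.65 in wild type (limma adjusted p = 0.000301) and -0.75 in the over-expression lines (adjusted p = 0.000172). Its relative GLK1 gave -0.84 in both genotypes. PHYA, a phytochrome photoreceptor, gave -0.88 and -0.70. PHYC, another phytochrome, passed the test in the over-expression lines at -0.36 (adjusted p = 0.0149) and gave -0.22 in wild type (adjusted p = 0.0765). The 7 include LPA1, which in rice names a gene outside photosynthesis and matched by letters alone. PHYB, VIPP1 and LPA1 passed the test in neither genotype.

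Of 4 genes of chlorophyll breakdown, 2 were lower in the young leaf of both genotypes and 1 was higher in that of wild type. The share of all probe sets called was 47.8% in wild type and 42.1% in the over-expression lines. SGR, the stay-green gene that starts chlorophyll breakdown, gave 245 ± 8.31 in WT_L3 and 89.5 ± 20.4 in WT_L6 (SD, n = 3), a log2 difference of -1.33 (limma adjusted p = 0.000225), and of -1.14 in the over-expression lines. RCCR1, the red chlorophyll catabolite reductase gene, gave -1.66 and -1.58. NOL, a chlorophyll b reductase gene, was called higher in the young leaf of wild type at 0.43 (adjusted p = 0.0409). NYC1, its partner, passed in neither genotype. The part of chlorophyll breakdown in the leaf differences of the photosynthesis genes was not tested.

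Markers of other tissues were read as well. Of 5 genes of secondary cell walls, 4 were higher in the young leaf of wild type and 2 in that of the over-expression lines. Of 4 epidermis genes tested, none passed in wild type, while 2 were higher and 1 lower in the young leaf of the over-expression lines. Of 3 root genes tested, 2 were lower in the young leaf of each genotype, NAAT1 and LSI1. The background of probe sets called was 47.8% in wild type (23.9% higher, 23.9% lower) and 42.1% in the over-expression lines (18.9% higher, 23.2% lower). No shoot meristem marker was measured. Apart from the division markers, the genes of secondary cell walls and GLO3, none of these lists was set against the photosynthesis genes array by array.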

How the data were processed

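Per the labels' protocols, biotin-labelled leaf cRNA was read on an Affymetrix array. The deposited table holds the authors' linear signal intensity per probe set. How the probes were summarized and the arrays scaled is not given in the labels or the table. Array medians differed by at most 0.153 (log2), and no further normalization was applied. In R 4.3.3, log2(intensity + 16) was fitted with limma 3.58.1 (trend) over 4 groups of 3 arrays, with 8 residual degrees of freedom. A filter removed 187 array controls and probe sets averaging below the 40th percentile, and 34316 remained. Two-sided p-values were adjusted over these by Benjamini-Hochberg, with a threshold of 0.05. A gene was read from its brightest probe set. Names came from the platform annotation and NCBI's gene table (assembly ASM3414082v1), and probe sets naming several genes were not used. Tables and figures used matplotlib 3.10.9 and pandas 2.3.3 in Python 3.11.15. The fit was tested on simulated data. The genes and the lists of other photosynthesis genes, regulators, senescence, dividing cells, walls, epidermis, roots and meristem were chosen with earlier results of these data known. Per-array values are given for called genes, for the 2 genes with the smallest p in each genotype comparison and the interaction, and for the gene with the smallest wild-type leaf p in each role; the rest are summarized. Both leaves of a plant share a label, and their deviations from the group means correlated at -0.24, -0.36 and -0.05 in wild type and at 0.10, 0.14 and 0.20 in the over-expression lines.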

Additional observations from a re-analysis of the deposited data

How the results depend on the processing

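Of 24 alternatives, the 1 without the 3 old-leaf arrays left 1 array in OE_L3, and its calls are not counted here. It also dropped the old leaves where PSB28 and RBCS-C were highest. Under each of the others, PSB28, RCA, RBCS-C and the FNR gene LOC4342399 were called between leaves in both genotypes. The directions were the same, and none of the 13 was called between genotypes. None was called in the interaction under those of them run for it. The fit of only the groups compared was not among these, since the interaction could not be fitted there. With the replicate block 4 of 13 genes were called in each leaf comparison and 0 in the others. The block was the plant for the leaf comparisons and the interaction. Between genotypes it was the replicate number, and the labels link no wild-type plant to the line of the same number. The block changed no call, and in wild type the adjusted p became 0.0113 for PSB28, 0.0129 for RCA, 0.0272 for RBCS-C and 0.00338 for LOC4342399. Leaving out 1 array gave 4 to 7 called in wild type and 4 to 5 in the over-expression lines. The median difference between genotypes in the old leaf ranged from -0.10 to -0.0033 with 1 array left out. Quantile normalization gave a median leaf difference of 0.14 in wild type, and also called PETE in both genotypes (0.16 and 0.18). Without the 3 old-leaf arrays with high division markers, an alternative chosen after seeing the data, the median interaction was 0.12. PSAG turned in sign between leaves of the over-expression lines without OE_L6 replicate 1 or 3 (0.030 and 0.00014, in a range of -0.24 to 0.030 with 1 array left out), without the 3 old-leaf arrays (0.060) and with probe sets averaged (0.11), and in wild type with probe sets averaged (0.034). RCABP69 turned between genotypes in the young leaf without OE_L6 replicate 2 (range -0.12 to 0.039). CAB2R passed the threshold in wild type when only the groups compared were fitted (adjusted p = 0.0428), and in both genotypes without OE_L6 replicate 1 (0.0423 and 0.0255), without WT_L6 replicate 1 (0.0235 and 0.0432) and with probe sets averaged (0.0465 and 0.0363). Without OE_L6 replicate 2 it passed in wild type (0.013), while in the over-expression lines its difference was -0.25 (adjusted p = 0.175). With 1 array left out its difference ranged from -0.63 to -0.37 in wild type (adjusted p from 0.013 to 0.187) and from -0.65 to -0.25 in the over-expression lines. The causes were not tested. With 3 arrays a group and a shared spread, small differences were often beyond the reach of the fit, and not only in PSB28 and RCABP89. In the simulated data, probe sets drawn from all those tested were given a log2 difference of 0.5. It was recovered for 38.8% of them between genotypes in the old leaf, 31.3% in the young leaf and 13.4% in the interaction. Each simulated group had the same spread, averaged over the 4 groups. The real log2 variance was larger in the old leaf (0.169 in WT_L3, 0.115 in OE_L3) than in the young leaf (0.0425 in WT_L6, 0.0469 in OE_L6). These shares therefore cannot tell in which leaf real differences were easier to detect.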
